A study of Homo sapiens with 12 samples.

Results

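The genes described here are the transcription factor genes FOS, FOSB, FOSL1, FOSL2, JUN, JUNB and JUND, whose proteins make up the AP-1 complex, together with EGR1, IER2 and MYC. They were taken by symbol from the deposited count table, which held 57773 genes, and each of the 10 matched 1 row. All 10 passed the filter on low counts and were among the 17532 genes tested. The cells were A549, an established line from a human lung adenocarcinoma, cultured in medium with fetal bovine serum. The 12 libraries fell into 3 groups of 4, each reverse transfected with 50 nM siRNA and collected after 72 h: a non-targeting control, siGOLM1-1 and siGOLM1-2. Both of the latter are directed at GOLM1, the gene of a Golgi membrane protein. All groups share the line, the transfection and the lipid reagent, and no untransfected cells were analysed here. The labels call the 4 libraries of a group biological replicates, without saying whether these were separate cultures grown on different days, so the p-values measure the spread between these libraries.

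AP-1 is a dimer of leucine zipper proteins. JUN, JUNB and JUND can pair with one another or with a FOS family protein, while the FOS proteins need a JUN partner. FOS, FOSB, JUN, JUNB, EGR1 and IER2 are immediate early genes: growth factors, serum and stress switch their transcription on within minutes through the ERK, JNK and p38 kinases and serum response factor, and their mRNAs are short-lived. FOSL1 and FOSL2, which lack the strong activation domain of FOS, are induced later and persist. JUND is made at a steadier level in most cells, and its protein can slow proliferation. MYC, which binds DNA with MAX, drives ribosome synthesis and growth. A sample taken 72 h after transfection shows the standing level of these mRNAs in serum-fed cells, not the first response to a stimulus.

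Total counts ran from 41617042 to 71344718 per library. FOSB, with 43 to 132 counts, and EGR1, with 56 to 130, had the fewest counts, while FOSL1, with many more, had the largest SE in each comparison. Levels are given as CPM (counts-per-million of the library total, scaled by its TMM factor). A CPM value is a share of the RNA counted, so fewer cells making a transcript and less RNA per cell cannot be told apart. GOLM1, the targeted gene, held 344 to 378 CPM in control libraries and 37.5 to 53.4 CPM in the 8 knockdown libraries. The control libraries stood in pairs: after group means were removed, deviations of replicates 1 and 2 correlated at 0.69 over 11197 genes and those of replicates 3 and 4 at 0.82. Replicate 4 of siGOLM1-2 stood apart over these 11197 genes, and in several members, as given below. Its deviations correlated at -0.73, -0.61 and -0.86 with those of replicates 1, 2 and 3 of its group. Deviations of replicates 1 to 3 correlated with one another at 0.14 to 0.50. All 5 epithelial markers were above 1 CPM in every group. Their summed level was 2710 to 3300 CPM with siGOLM1-1, 5280 to 5460 with siGOLM1-2 and 4800 to 6800 in the control. KRT8 and KRT18 made up most of the sum, with control means of 3810 and 1840 CPM. Over all 12 libraries, CDH1 ran from 96.7 to 137 CPM, EPCAM from 3.02 to 6.28 and KRT19 from 51.5 to 331. Markers of alveolar type II cells summed to at most 0.423 CPM, and SFTPA1 was at 0 in all libraries. Leukocyte markers other than CD14, and the endothelial marker VWF, were at or under 0.142 CPM in every library. CD14 was at 6.7 to 15.2 CPM and the endothelial marker CDH5 at 0.201 to 1.82 CPM. PECAM1, also listed, was not found by symbol. Leukocyte markers summed to 6.74 to 7.35 CPM in control libraries, 9.37 to 15.2 after siGOLM1-1 and 10.6 to 12.5 after siGOLM1-2. Fibroblast markers, chiefly COL1A1, summed to 33.9 to 73.2 CPM in control libraries, 48.6 to 93.5 after siGOLM1-1 and 26.3 to 39.2 after siGOLM1-2. The part of these differences in the results below was not tested.

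The comparisons of either siRNA with the control, and of one siRNA with the other, came from 1 edgeR quasi-likelihood fit of all 12 libraries. A gene was called higher or lower at a Benjamini-Hochberg adjusted p under 0.05 over all genes tested. Fold changes are on the log2 scale, where 1 is a doubling, and carry their standard error (SE, n = 4 libraries per group).

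With siGOLM1-1, 4 of the 10 genes rose, JUND, FOS, IER2 and FOSL2, and 1 fell, MYC. Of all genes tested in that comparison, 23.7% were called higher and 23.8% lower. With siGOLM1-2, 7 rose (FOSL1, FOS, JUN, JUND, IER2, FOSL2 and MYC) and 0 fell, where 21.8% of all genes were called higher and 23.2% lower. At an unadjusted p under 0.05 and by DESeq2, the count of members lower with siGOLM1-2 was also 0. The median log2 fold change over the 10 was 0.47 with siGOLM1-1 and 0.41 with siGOLM1-2, against -0.01 over all genes in each. The libraries did not overlap with those of the control for 6 of the 10 with each siRNA, where this held for 41.0% of all genes with siGOLM1-1 and 45.9% with siGOLM1-2. Both comparisons use the same control libraries.

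**Figure D1:**
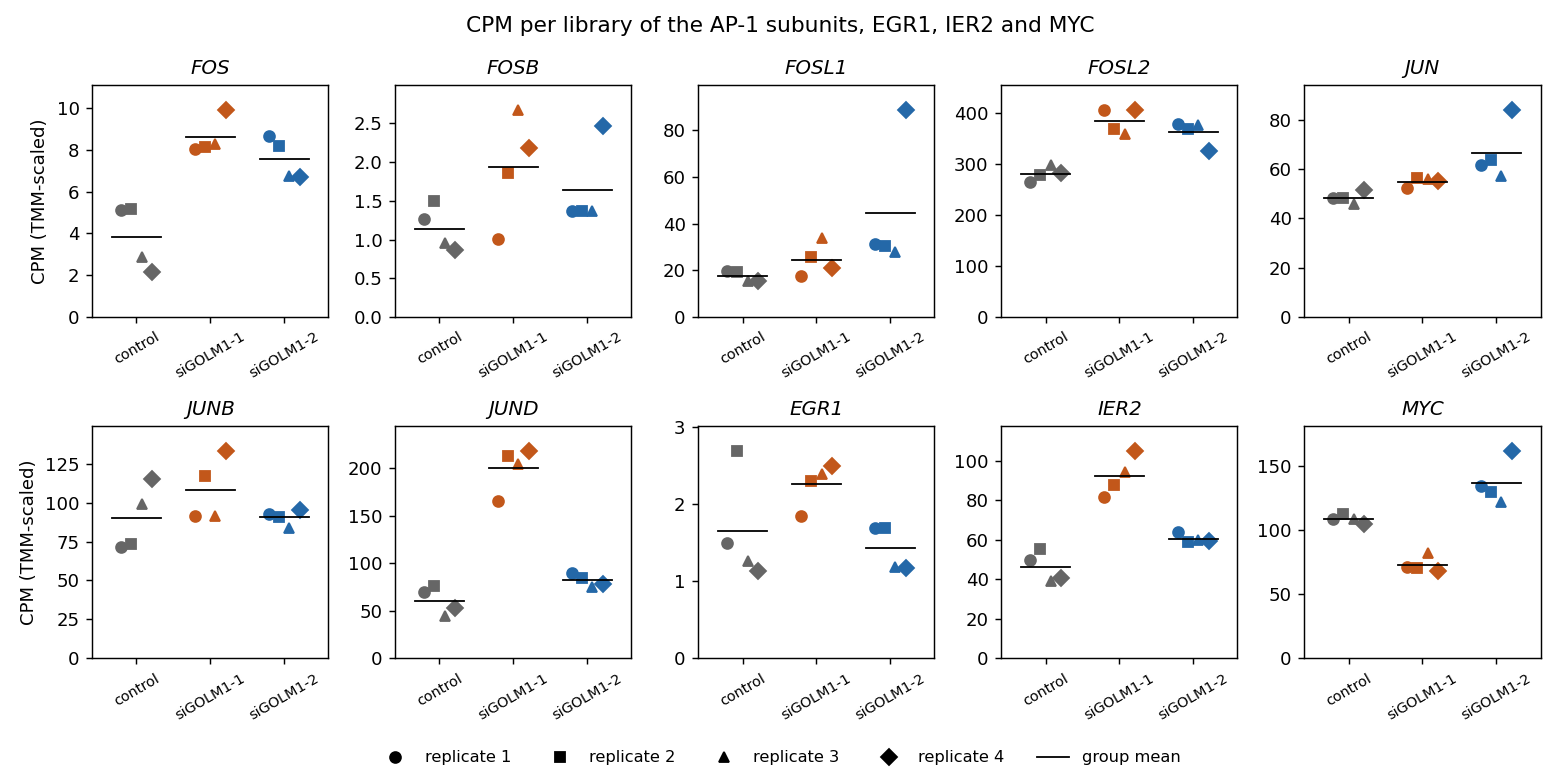
CPM of each of the 10 genes in each library, on a linear axis from 0, with 1 marker shape per replicate number and a bar at the group mean (n = 4 per group). JUND stands between 165 and 218 CPM with siGOLM1-1 and at or under 89.4 CPM elsewhere, and MYC is under the control with siGOLM1-1 and over it with siGOLM1-2.

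**Figure D2:**
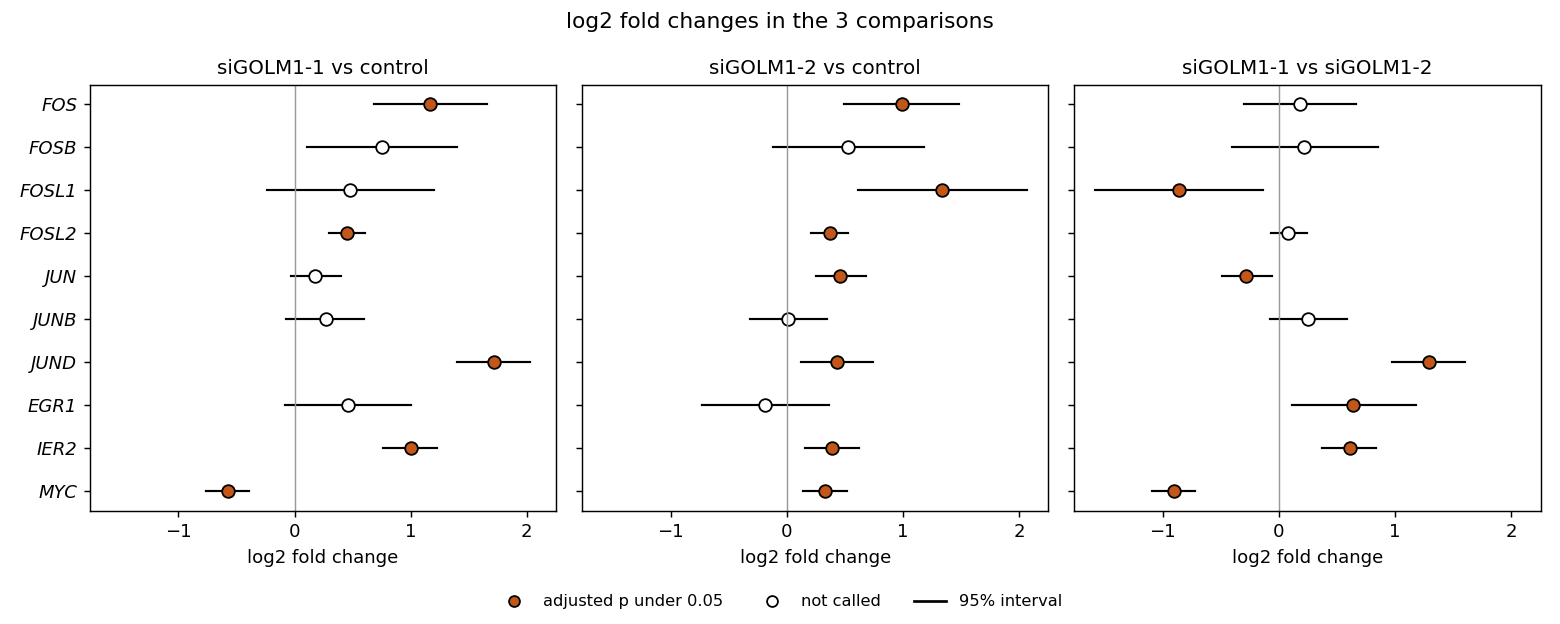
log2 fold change of each gene in the 3 comparisons, with its 95% interval from the fit; filled points were called at an adjusted p under 0.05. JUND at 1.72 is the highest point of the first panel, and MYC lies on opposite sides of 0 in the first 2 panels.

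JUND had the largest change among the 10 with siGOLM1-1. Its level was 69.5, 75.8, 44.7 and 53.5 CPM in control replicates 1 to 4. It was 165, 213, 204 and 218 CPM with siGOLM1-1, so that the lowest of these was more than double the highest control value. With siGOLM1-2 it was 89.4, 84.6, 75.1 and 78.7 CPM, which overlapped with the control at its lower end. The rise was 3.28-fold with siGOLM1-1 (log2 1.72, SE 0.15, edgeR adjusted p = 8.38e-07) and 1.35-fold with siGOLM1-2 (0.43, SE 0.14, edgeR adjusted p = 0.0259). The second call ended without control replicate 3 (0.30), control replicate 4 (0.37), siGOLM1-2 replicate 1 (0.39) or siGOLM1-2 replicate 2 (0.41), and against control replicates 1 and 2 alone (0.17).

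The promoter window of JUND, from 250 bases before to 50 after the RefSeq start, is shown because this gene moved most and because the window holds a cyclic AMP response element, TGACGTCA, a sequence bound by ATF and CREB proteins and by some AP-1 dimers. It lies at chr19:18281573-18281872 on the minus strand (RefSeq, GRCh38.p14), the element begins 200 bases before the start and is in capitals, and 77% of the window is G or C.
JUND: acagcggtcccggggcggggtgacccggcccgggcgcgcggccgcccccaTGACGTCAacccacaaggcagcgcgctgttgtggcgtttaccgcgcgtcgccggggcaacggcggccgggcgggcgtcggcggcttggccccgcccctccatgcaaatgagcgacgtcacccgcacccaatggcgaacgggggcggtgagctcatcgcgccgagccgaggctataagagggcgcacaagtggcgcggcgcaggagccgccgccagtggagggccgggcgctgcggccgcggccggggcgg
On either strand, that element was in 1.85% of 35116 windows of the same length.

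JUN, the best known partner of FOS, moved less than JUND. It was at 48.1, 48.3, 45.8 and 51.4 CPM in the control, at 52.2, 56.3, 56.1 and 55.1 with siGOLM1-1, and at 61.8, 63.5, 57.2 and 84.0 with siGOLM1-2. All 8 knockdown libraries were above all 4 control libraries, although the gap to siGOLM1-1 was small. The change was called with siGOLM1-2 (log2 0.46, SE 0.10, edgeR adjusted p = 0.00203) and not with siGOLM1-1 (0.18, 95% interval -0.03 to 0.40, edgeR adjusted p = 0.151). Without siGOLM1-2 replicate 4, the siGOLM1-2 value was 0.33 and the siGOLM1-1 value, still 0.18, was called (edgeR adjusted p = 0.0271), with an SE of 0.06 in place of 0.10.

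JUNB, which can both replace and oppose JUN, was called with neither siRNA. It was at 71.7 and 73.3 CPM in control replicates 1 and 2 and at 99.1 and 115 in replicates 3 and 4, with no overlap between those pairs. The knockdown libraries held 91.3 to 133 CPM with siGOLM1-1 and 83.6 to 95.3 with siGOLM1-2. The log2 difference was 0.27 with siGOLM1-1 (95% interval -0.07 to 0.60) and 0.01 with siGOLM1-2 (-0.32 to 0.35). Against control replicates 1 and 2 alone JUNB was called higher with siGOLM1-1 (0.58, edgeR adjusted p = 0.00589), and it was called without control replicate 4 (0.41).

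As counts per base of annotated exon, the makeup of the JUN family with siGOLM1-1 lay outside the range of the control libraries for all 3 genes. With siGOLM1-2 the shares of JUND and JUNB lay inside that range. No test was run on these shares. JUND took 34.4% ± 9.01 (SD, n = 4) of the family in control libraries, 58.9% ± 2.39 after siGOLM1-1 and 39.1% ± 2.38 after siGOLM1-2. JUN took 14.3% ± 0.585, 8.59% ± 0.900 and 16.7% ± 2.29 in the same order. JUNB took 51.3% ± 9.47, 32.5% ± 2.85 and 44.2% ± 0.452. The ratio of JUND to JUN counts within a library, in which gene length plays no part when libraries are compared, was 0.977 to 1.57 in control libraries, 3.16 to 3.95 after siGOLM1-1 and 0.938 to 1.45 after siGOLM1-2. No siGOLM1-1 library overlapped with the others in this ratio. These shares are of mRNA and say nothing of the amounts of protein.

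**Figure D3:**
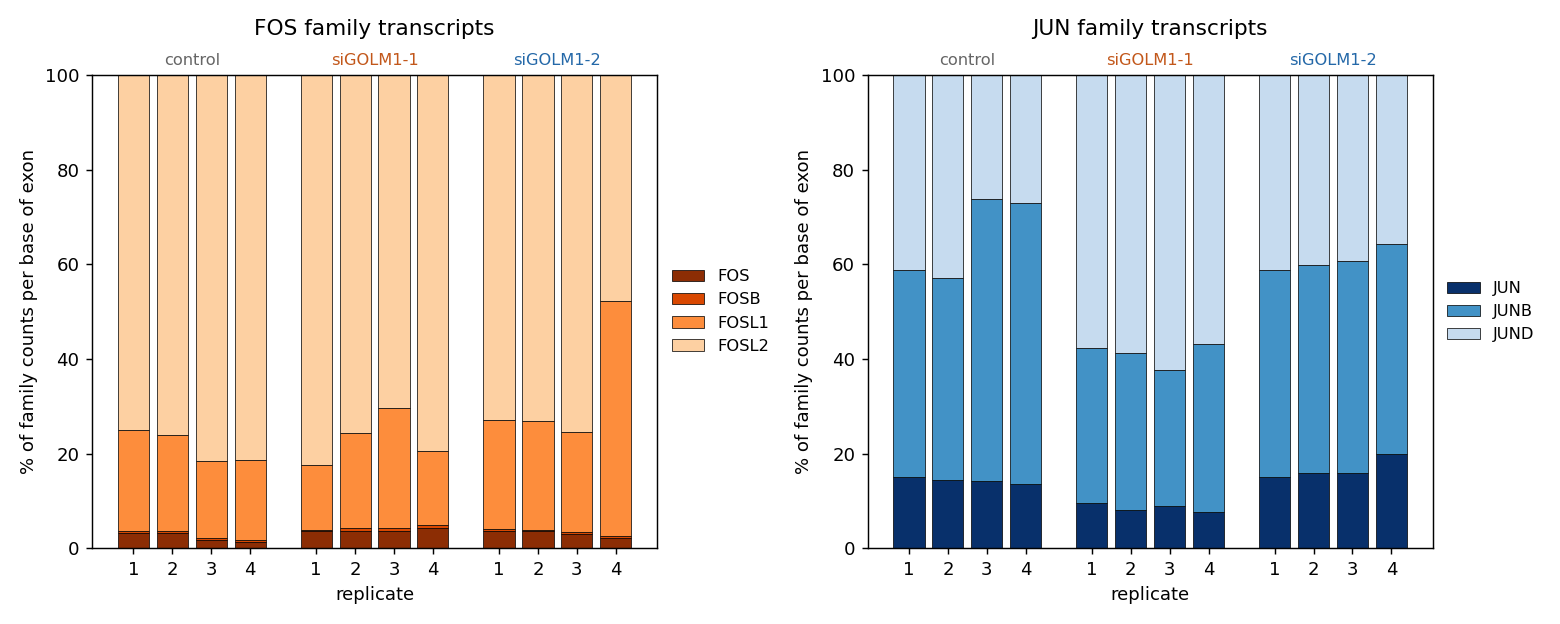
Share of each gene in the counts of its family, each count divided by the annotated exon length, in each of the 12 libraries. JUND takes 56.9% to 62.3% of the JUN family in the siGOLM1-1 libraries and 26.3% to 43.0% in the control, and FOSL1 takes 49.5% of the FOS family in siGOLM1-2 replicate 4.

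FOS rose with both siRNAs from a low level. It was at 5.12 and 5.17 CPM in control replicates 1 and 2, and at 2.86 and 2.17 in replicates 3 and 4. It was at 8.06, 8.13, 8.30 and 9.91 CPM with siGOLM1-1 and at 8.65, 8.17, 6.75 and 6.72 with siGOLM1-2, all above the highest control value. The rise was 2.25-fold with siGOLM1-1 (log2 1.17, SE 0.23, edgeR adjusted p = 0.000926) and 1.98-fold with siGOLM1-2 (0.99, SE 0.23, edgeR adjusted p = 0.00328). The call held in all 21 alternatives for each siRNA, but its size followed the control pair: it was 0.74 and 0.56 when replicates 1 and 2 served as the control, and 1.78 and 1.61 when replicates 3 and 4 did.

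FOSB, the close relative of FOS with a truncated splice form known from neurons, was the lowest of the 10 per base of exon in every group. It was at 0.865 to 1.49 CPM in control libraries, 1.01 to 2.67 after siGOLM1-1 and 1.37 to 2.46 after siGOLM1-2. The log2 difference was 0.75 with siGOLM1-1 (SE 0.30, edgeR adjusted p = 0.0532) and 0.53 with siGOLM1-2 (SE 0.30, edgeR adjusted p = 0.173), and neither was called. With siGOLM1-1 it was called in 6 of 21 alternatives: with DESeq2 (0.77), with no count filter (0.75), against control replicates 3 and 4 alone (1.08), without control replicate 2 (0.91), without siGOLM1-1 replicate 1 (0.97) and without siGOLM1-2 replicate 4 (0.75).

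FOSL1, which encodes FRA-1, a FOS family protein linked to invasion in carcinoma cells, rose with siGOLM1-2. It was at 19.8, 19.5, 15.7 and 15.5 CPM in the control. With siGOLM1-2 it was at 31.4, 30.4, 28.0 and 88.8 CPM, so that replicate 4 was at nearly 3 times the level of the other libraries of its group. The siGOLM1-1 libraries held 17.8, 25.8, 34.0 and 20.9 CPM and overlapped with the control. The rise with siGOLM1-2 was 2.53-fold (log2 1.34, SE 0.34, edgeR adjusted p = 0.00573), and without replicate 4 it was 0.76 (SE 0.18, edgeR adjusted p = 0.00475). It was not called against control replicates 1 and 2 alone (1.18, edgeR adjusted p = 0.0642). With siGOLM1-1 the difference was 0.48 (95% interval -0.24 to 1.2), not called, except in the fit without siGOLM1-2 replicate 4 (edgeR adjusted p = 0.0317).

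FOSL2, which encodes FRA-2, was the most abundant FOS family transcript. It was at 264, 279, 297 and 283 CPM in the control, at 406, 369, 358 and 406 with siGOLM1-1 and at 379, 369, 377 and 325 with siGOLM1-2. Every knockdown library was above every control library. The rise was 1.37-fold with siGOLM1-1 (log2 0.45, SE 0.07, edgeR adjusted p = 0.000195) and 1.29-fold with siGOLM1-2 (0.37, SE 0.07, edgeR adjusted p = 0.00107), and both calls held in all 21 alternatives. Per base of exon, FOSL2 made up 78.5% ± 3.43 (SD, n = 4) of the FOS family in control libraries, 77.0% ± 5.24 after siGOLM1-1 and 67.4% ± 13.1 after siGOLM1-2. In siGOLM1-2 replicate 4 its share was 47.8%, where FOSL1 took 49.5%.

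The FOSL2 window is shown because, among the windows of the 8 members searched, it alone held the AP-1 site TGANTCA itself. It lies at chr2:28392608-28392907 on the plus strand (RefSeq, GRCh38.p14), and the site, in capitals, begins at base 5 of the transcript.
FOSL2: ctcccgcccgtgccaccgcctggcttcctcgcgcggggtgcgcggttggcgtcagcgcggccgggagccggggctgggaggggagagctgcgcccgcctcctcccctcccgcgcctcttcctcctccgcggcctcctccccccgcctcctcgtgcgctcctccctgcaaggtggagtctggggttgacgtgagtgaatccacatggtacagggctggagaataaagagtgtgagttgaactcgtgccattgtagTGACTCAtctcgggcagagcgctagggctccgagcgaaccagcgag
That site was in 7.71% of all 35116 windows. The windows of FOS, FOSB, JUN, JUNB and IER2 held none of the 5 motifs searched on both strands. Among these were the AP-1 site, the cyclic AMP response element and the EGR site GCGNGGGCG. The rest were the CArG box bound by serum response factor and the E-box CACGTG bound by MYC and MAX. Only exact matches inside the window were counted, so variant forms and sites further upstream were not searched. MYC was left out of this search by design, and FOSL1 had no window in it.

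EGR1, a zinc finger factor and a standard readout of recent ERK activity, was low in every library and was called against the control with neither siRNA. It was at 1.5, 2.69, 1.27 and 1.13 CPM in the control, at 1.85, 2.30, 2.39 and 2.50 with siGOLM1-1 and at 1.69, 1.69, 1.19 and 1.17 with siGOLM1-2. Control replicate 2 lay above all knockdown libraries. The log2 difference was 0.46 with siGOLM1-1 (95% interval -0.08 to 1.00, edgeR adjusted p = 0.146) and -0.19 with siGOLM1-2 (-0.73 to 0.36, edgeR adjusted p = 0.58). Without control replicate 2, EGR1 was called with siGOLM1-1 (0.81, edgeR adjusted p = 0.00576) and was at 0.17 with siGOLM1-2, and against control replicates 3 and 4 alone the values were 0.92, called, and 0.28.

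The EGR1 window is shown beside that low level because it carries the serum response elements for which the gene is known. It lies at chr5:138465229-138465528 on the plus strand (RefSeq, GRCh38.p14). Its CArG boxes begin 105 and 83 bases before the start and an EGR site begins 198 bases before it, all in capitals.
EGR1: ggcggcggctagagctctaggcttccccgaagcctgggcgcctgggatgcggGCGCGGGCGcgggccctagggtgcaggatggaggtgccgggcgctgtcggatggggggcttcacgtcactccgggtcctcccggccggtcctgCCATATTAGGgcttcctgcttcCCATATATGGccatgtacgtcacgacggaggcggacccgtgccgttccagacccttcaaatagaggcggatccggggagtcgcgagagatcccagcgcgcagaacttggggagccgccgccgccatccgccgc
A CArG box was in 1.29% and an EGR site in 9.43% of the 35116 windows.

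IER2, a small nuclear protein of the immediate early class, rose with both siRNAs. It was at 49.8, 55.2, 39.0 and 40.8 CPM in the control, at 81.8, 87.7, 94.6 and 105 with siGOLM1-1 and at 64.1, 59.1, 59.9 and 59.3 with siGOLM1-2. The 3 groups did not overlap. The rise was 2.00-fold with siGOLM1-1 (log2 1.00, SE 0.11, edgeR adjusted p = 6.35e-06) and 1.31-fold with siGOLM1-2 (0.39, SE 0.11, edgeR adjusted p = 0.00918). Against control replicates 1 and 2 alone the values were 0.81, called, and 0.21, not called (edgeR adjusted p = 0.137).

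MYC moved in opposite directions with the 2 siRNAs. It was at 109, 113, 109 and 105 CPM in the control, with a coefficient of variation of 3.23%, the lowest of the 10 genes there. With siGOLM1-1 it was at 71.6, 70.8, 82.4 and 68.3 CPM, all below the control. With siGOLM1-2 it was at 135, 130, 122 and 162 CPM, all above it. The fall was 1.49-fold (log2 -0.57, SE 0.09, edgeR adjusted p = 0.000117) and the rise 1.26-fold (0.33, SE 0.09, edgeR adjusted p = 0.00711). The fall was called in all 21 alternatives. The rise was 0.24 without siGOLM1-2 replicate 4 (edgeR adjusted p = 0.0194) and was not called against control replicates 1 and 2 alone (0.30, edgeR adjusted p = 0.0555).

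Set side by side per kilobase of annotated exon, the 10 transcripts spanned more than 2 orders of magnitude in the control. JUNB (49.4 CPM per kb), FOSL2 (39.3), MYC (36.4) and JUND (32.7) came first, and neighbours among these 4 overlapped between libraries. IER2 (15.0) and JUN (13.7) followed and overlapped with each other, then FOSL1 (9.34), FOS (1.18), EGR1 (0.525) and FOSB (0.206). With siGOLM1-1, JUND stood first at 107 CPM per kb and did not overlap with JUNB (59.4), and MYC stood at 24.4, behind IER2 (30), with which it overlapped. With siGOLM1-2, FOSL2 (50.7), JUNB (49.8), MYC (45.7) and JUND (44.0) were again the first 4 and overlapped as neighbours. FOSL1 had a mean of 23.7 with siGOLM1-2, above IER2 (19.7) and JUN (18.8), through replicate 4 alone (47.1). In replicates 1 to 3 it was at 16.7, 16.1 and 14.8, below both genes in each library, as in the other groups' order of means.

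The direct comparison of the siRNAs tests whether their effects differ, since the control drops out. Higher with siGOLM1-1 than with siGOLM1-2 were 3 genes: JUND (log2 1.29, SE 0.14, edgeR adjusted p = 6.3e-06), EGR1 (0.64, SE 0.25, edgeR adjusted p = 0.0416) and IER2 (0.61, SE 0.11, edgeR adjusted p = 0.000314). Another 3 were lower: MYC (-0.90, SE 0.09, edgeR adjusted p = 1.4e-06), FOSL1 (-0.86, SE 0.33, edgeR adjusted p = 0.0425) and JUN (-0.28, SE 0.10, edgeR adjusted p = 0.0297). Of all genes, 27.9% were called higher and 26.5% lower in this comparison, and 48.4% did not overlap, as was so for 5 of the 10 members. JUND, IER2 and MYC were called in all 21 alternatives. The other 3 calls were marginal. Without siGOLM1-2 replicate 4, FOSL1 was at -0.28, JUN at -0.15 and EGR1 at 0.56, none called. EGR1 was also not called without siGOLM1-1 replicate 2 (0.64), 3 (0.62) or 4 (0.60), without siGOLM1-2 replicate 3 (0.57), or scaled by library totals (0.51). JUN was not called without siGOLM1-1 replicate 1 (-0.25), 3 (-0.29) or 4 (-0.28), and FOSL1 was not called in 14 of 21 alternatives, DESeq2 among them (-0.86), with a range of -1.05 to -0.28 over all 21. For FOS the difference was 0.18 (95% interval -0.30 to 0.66), for FOSB 0.22 (-0.40 to 0.85), for FOSL2 0.08 (-0.07 to 0.24) and for JUNB 0.25 (-0.08 to 0.59). These intervals do not show that the siRNAs acted alike on those 4 genes.

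Part of the spread in the control followed its pairs. Control replicates 1 and 2 did not overlap with replicates 3 and 4 in 8 of the 10 genes, all but JUN and MYC. The same held for 65.4% of all genes tested, so the split is not one of these genes alone. FOS was 2.05 times, EGR1 1.75 times, FOSB 1.51 times, JUND 1.48 times and IER2 1.32 times as high in replicates 1 and 2, while JUNB was 1.48 times as high in replicates 3 and 4. The rises of FOS, JUND and IER2 with siGOLM1-1 were called against each pair alone. For JUND they were 1.46 against replicates 1 and 2 and 2.03 against replicates 3 and 4, and for IER2 0.81 and 1.22. With siGOLM1-2, 3 members were called higher against replicates 1 and 2 alone (FOS, FOSL2 and JUN), where 18.2% of all genes were, and 7 against replicates 3 and 4 alone, where 20.1% were. What sets the pairs apart was not tested.

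**Figure D4:**
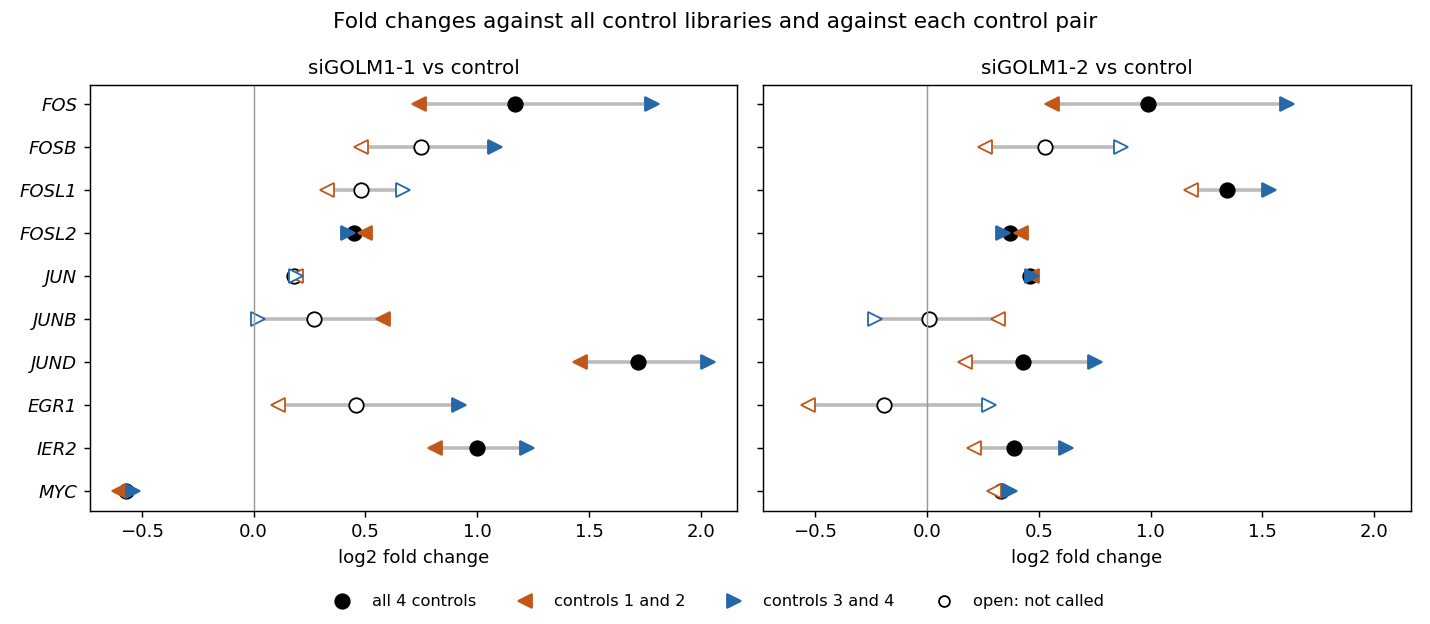
log2 fold change of each gene against all 4 control libraries (circle), control replicates 1 and 2 alone (left triangle) and control replicates 3 and 4 alone (right triangle); filled symbols were called at an adjusted p under 0.05. FOS with siGOLM1-1 runs from 0.74 to 1.78, while JUN with siGOLM1-1 is at 0.19 against either pair.

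Genes around these factors were counted by list, and ATF3, MAFF, IER3 and SRF stand in 2 lists each. The shares of all genes called, given above, apply to these counts too. Named list genes were called unless said otherwise. Of 30 other immediate early genes, 26 were tested, and with siGOLM1-1 17 were higher, 1 lower and 8 not called (median log2 fold change 0.76, against -0.01 over all genes). RHOB, a small GTPase, was at 1.37, the antiproliferative BTG2 at 2.11, MCL1, a survival factor of the BCL2 family, at 0.83, and ATF3, a stress-induced partner of JUN, at 2.80. With siGOLM1-2 the same list had 9 higher, 6 lower and 11 not called (median 0.11): BTG2 was at 1.22, the Kruppel-like factors KLF2 and KLF4 at 1.57 and 0.79, while GADD45B, a stress sensor, was at -0.78. MCL1, GADD45B, NR4A1 and NFKBIZ were called in opposite directions. MCL1 was at -0.44 with siGOLM1-2 and GADD45B at 0.63 with siGOLM1-1. NR4A1 was at 1.25 with siGOLM1-1 and -0.99 with siGOLM1-2, and NFKBIZ at 0.64 and -0.5 in the same order. RHOB was at 0.13 with siGOLM1-2, not called, and ATF3 at 0.94. Between the siRNAs, 17 of the 26 were higher and 2 lower with siGOLM1-1. EGR2, EGR3, EGR4 and DUSP2 are in the list and did not pass the filter on low counts.

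The leucine zipper partners of AP-1 had 12 of 15 tested genes higher, 1 lower and 2 not called with siGOLM1-1 (median 0.78), and 7 higher, 2 lower and 6 not called with siGOLM1-2 (median 0.20; 4 higher against control replicates 1 and 2 alone). BATF3 was at 1.34 with siGOLM1-1 and MAF at 1.77 and 1.28 with the 2 siRNAs. BATF2, MAFK and CREB1 were called in opposite directions. BATF2 was at -2.42 with siGOLM1-1 and 1.46 with siGOLM1-2. In the same order MAFK, a small MAF protein, was at 1.64 and -0.98, and CREB1 at 0.25 and -0.38. Of 25 kinases and factors upstream, 7 were higher and 2 lower with siGOLM1-1 and 7 higher and 6 lower with siGOLM1-2 (median 0.10 and 0.07). MAPK8, the gene of JNK1, was at 0.94, MAP2K2 at 0.81 and MAP2K4, which activates JNK, at 0.60 with siGOLM1-1. The 2 lower genes there were the p38 gene MAPK14 at -0.45 and MAPK9, another JNK gene, at -0.26. With siGOLM1-2, NRAS was at -0.68, the ERK1 gene MAPK3 at -0.94, RPS6KA3, an ERK-activated kinase, at -0.79 and ELK4, a partner of serum response factor, at -0.88. Among the 7 higher there were RPS6KA5 at 1.57, MAP3K1 at 1.04, MAP2K2 at 0.66, RPS6KA1 at 0.39 and BRAF at 0.31. With library totals as the scaling, 11 of this list were higher with siGOLM1-2, and against control replicates 1 and 2 alone 4.

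ERK target and feedback genes, which rise with ERK signalling and damp it, had 5 higher, 1 lower and 8 not called of 14 with siGOLM1-1 (median 0.23) and 9 higher, 0 lower and 5 not called with siGOLM1-2 (median 0.63). The siGOLM1-1 count depended on the control, with 2 higher when replicates 1 and 2 served as the control and 8 when replicates 3 and 4 did. The ERK phosphatase DUSP5 was at 3.20 with siGOLM1-1 and 1.39 with siGOLM1-2. With siGOLM1-2 the ERK phosphatase DUSP6 was at 1.09, the feedback inhibitor SPRY1 at 0.82 and the receptor EPHA2 at 0.60. Between the siRNAs, 4 were higher and 8 lower with siGOLM1-1.

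Of 28 genes described as AP-1 targets, 10 were higher, 2 lower and 16 not called with siGOLM1-1 (median 0.18). With siGOLM1-2, 14 were higher, 6 lower and 8 not called (median 0.44). Both counts of higher genes include MMP3, which had no count in the control. Its mean was 0.0302 CPM with siGOLM1-1, where libraries overlapped with the control, and 0.504 CPM with siGOLM1-2. PLAUR, the urokinase receptor, was at 1.5 and 0.78. PLAU, urokinase itself, was at 1.27 with siGOLM1-1 and at -1.15 with siGOLM1-2. With siGOLM1-1, SPP1, which encodes osteopontin, was at 1.08 and TGFB1 at 1.07. With siGOLM1-2, the inhibitor TIMP1 was at 1.11, the integrin ITGA2 at 1.49 and CCND1, which encodes cyclin D1, at -0.90. CCND1 was called in the other direction with siGOLM1-1, at 0.48. Between the siRNAs, 11 were higher and 12 lower with siGOLM1-1.

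Of 30 genes described as MYC targets, all tested, more were called lower than higher with each siRNA, while MYC itself was lower with siGOLM1-1 and higher with siGOLM1-2. With siGOLM1-1, 2 were higher, 20 lower and 8 not called (median -0.33). With siGOLM1-2, 0 were higher, 16 lower and 14 not called (median -0.28). With siGOLM1-1 the polyamine enzyme ODC1 was at -1.21, the ribosome assembly factor BOP1 at -1.04, GRWD1, another ribosome assembly factor, at -0.77 and nucleolin, NCL, at -0.49. With siGOLM1-2, NCL was at -0.59, the nucleolar protein NOP56 at -0.54, NPM1 at -0.57 and the chaperone HSPD1 at -0.50. ODC1 was at 0.08 and BOP1 at -0.21 with siGOLM1-2, neither called. Between the siRNAs, 6 were higher, 7 lower and 17 not called (median -0.07), and with library totals as the scaling 14 were lower.

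Among 12 tested partners and antagonists of MYC, 4 were higher and 1 lower with each siRNA (medians 0.08 and 0.22), and 7 were higher with siGOLM1-2 when scaled by library totals. MAX, its obligate partner, moved as MYC did, at -0.39 with siGOLM1-1 and 0.46 with siGOLM1-2. The antagonists that compete for MAX had MXI1 at 1.41 with siGOLM1-1, MXD1 at 0.44 and 1.47 and MXD4 at 0.73 and 0.71. With siGOLM1-2, MXD3 was at -0.47. The list of protein turnover genes had 4 higher and 1 lower of 11 with siGOLM1-1, and 2 higher and 4 lower with siGOLM1-2. Against control replicates 1 and 2 alone, 2 were higher and 2 lower with siGOLM1-1 and 1 higher and 4 lower with siGOLM1-2, and with library totals as the scaling 4 were higher and 2 lower with siGOLM1-1. RFWD2, a ligase subunit that targets JUN, was at 0.51 with siGOLM1-1, and FBXW7, which marks JUN and MYC for degradation, at 0.29. With siGOLM1-2, SKP2, a ligase subunit that acts on MYC, was at -0.73 and USP28, a deubiquitinase that stabilises MYC, at -0.65. Of the EGR corepressors, NAB2 was at 0.69 with siGOLM1-1 and -0.36 with siGOLM1-2, and NAB1 was at -0.26 and 0.06, the last not called. The fall of NAB1 was not called against either control pair alone, nor that of NAB2 against replicates 1 and 2 alone or with library totals as the scaling.

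**Figure D5:**
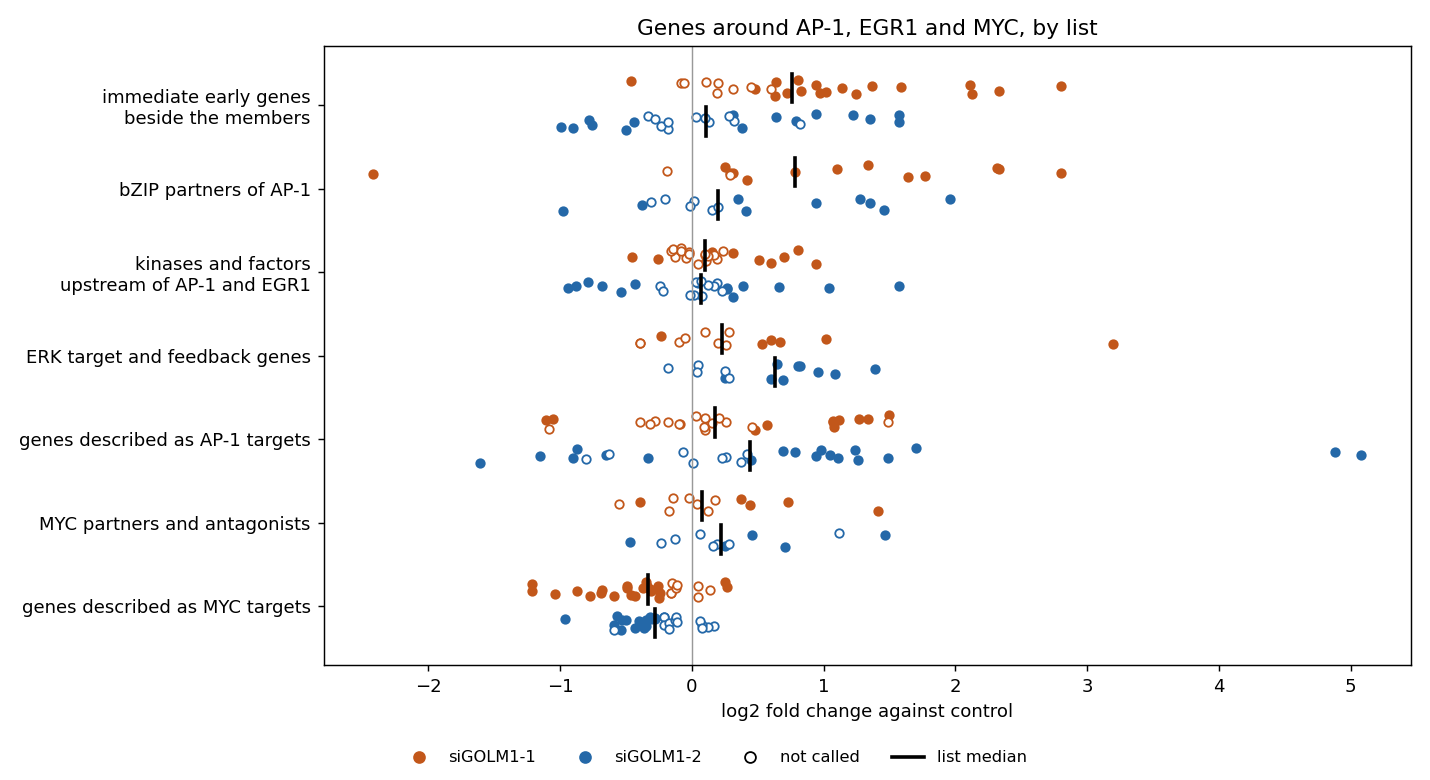
log2 fold change against the control of each tested gene in 7 lists, for siGOLM1-1 and siGOLM1-2; filled points were called, the thick bar is the list median, and MMP3, with no count in any control library, is in the median but not drawn. The immediate early list has its median at 0.76 with siGOLM1-1 and 0.11 with siGOLM1-2, and that of the MYC target list lies at -0.33 and -0.28.

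For the 4 members with the widest range of group means, the genes with the most similar profile over the 12 libraries were found among 11196 others with a mean of at least 5 CPM, by the root mean square difference of mean-centred log2 CPM. JUND was closest to MEX3D and HCN2 (difference 0.16 each) and HIST2H2BE (0.18). FOS was closest to RYR1 (0.18), ISYNA1 (0.20) and SMOC1 (0.21). FOSL1 was closest to ADAMTS12 (0.19), NFKBIE (0.21) and NFE2L3 (0.24), and IER2 to TRIM9 and SLC22A23 (0.10 each) and SESTD1 (0.12). The 12 libraries form 3 groups, so these profiles are alike mainly in their group means.

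Values in the authors' deposited tables had the same sign as the edgeR fit for all 10 genes with each siRNA. There, JUND was at 1.73 with siGOLM1-1 and 0.45 with siGOLM1-2, and MYC at -0.56 and 0.35. FOSB with siGOLM1-1 had an adjusted p of 0.0353 in the authors' deposited table against 0.0532 in the edgeR fit, and it was the only one of the 20 values to lie on the other side of 0.05. By the GENCODE 29 annotation, FOSB and JUNB overlap genes on the opposite strand (ERCC1 and HOOK2), and FOSL2 and IER2 overlap antisense transcripts. The strand setting of the counting was not given in the sources used here, so reads from such partners cannot be told apart.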

How the data were processed

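RNA of 12 libraries of A549 cells was measured by sequencing of mRNA from a stranded kit. The authors deposited raw counts per gene. The submitters' processing notes name bcl2fastq 2.20, STAR 2.7.3, DESeq2 1.24.0 and hg19. How reads were counted, with which annotation and strand option, is not given in the sources used here. The authors' deposited comparison tables hold log2 fold changes and their errors, p-values, a test score and the mean signal over libraries, per the file headers, and served only to set beside the fit. Of 57773 genes, 24653 had no count.

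The counts were fitted here with edgeR 4.0.16 in R 4.3.3: filterByExpr, TMM factors, 1 robust quasi-likelihood fit across all 17532 genes and 12 libraries with 9 residual degrees of freedom, without a replicate block, and Benjamini-Hochberg adjustment. The SE is the fitted log2 change divided by the root of the F statistic. Exon lengths are the union of exons in GENCODE 29 (GRCh38), used without coordinates; promoters came from RefSeq (GRCh38.p14). Profiles used log2 of CPM plus 0.01. The fits were tested on simulated data in which every gene had the same dispersion (spread beyond counting error). Only the siGOLM1-1 libraries held changed genes there, so the setting was simpler than that of these data. Alternatives were other scalings and filters, DESeq2 1.42.0, the compared groups alone, a replicate block, no robust estimation, each control pair and leaving out each library. The members and lists were chosen with earlier results of these data known. Named genes are the members, GOLM1, up to 4 genes per list with the smallest p, and the 3 closest profiles; others were chosen after their values were seen.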

Additional observations from a re-analysis of the deposited data

Results flagged for a closer look

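In 4 of 30 sets of 4 libraries (10 genes in 3 groups), 1 library lay far from the other 3 of its group, by a gap that took most of the group's range. Chance alone gives about 1 in 20 where sets are independent. These sets share their libraries, so that rate is not an exact yardstick here. FOSL1 was at 88.8 CPM in siGOLM1-2 replicate 4 and at 28.0 to 31.4 in the other 3. FOSB was at 2.46 CPM in the same library and at 1.37 in each of the others. FOS was at 9.91 CPM in siGOLM1-1 replicate 4, and IER2 at 64.1 CPM in siGOLM1-2 replicate 1, gaps that are small in size. What sets siGOLM1-2 replicate 4 apart was not tested.

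The effects of the 2 siRNAs differed by the direct edgeR test in 6 of the 10 genes, where 27.9% of all genes were called higher and 26.5% lower, so this count is near that of genes in general. siGOLM1-1 was above siGOLM1-2 for JUND (log2 1.29), EGR1 (0.64) and IER2 (0.61), in 4 of 4 libraries against each of the other group for all 3 genes. It was below for MYC (-0.90), in the same sense, for JUN (-0.28), also without overlap, and for FOSL1 (-0.86), where the libraries overlapped. The calls of FOSL1, JUN and EGR1 ended without siGOLM1-2 replicate 4, at -0.28, -0.15 and 0.56.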

How the results depend on the processing

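Over 21 alternatives, 15 of the 30 member results (10 genes in 3 comparisons) kept their direction and their side of the threshold in every one, and so did 579 of 630 single values. Counts of called members moved by more than 1.5 times in these cases. With siGOLM1-2, 3 members were higher against control replicates 1 and 2 alone, where 7 were in the fit of all libraries. With siGOLM1-1, 7 were higher without siGOLM1-2 replicate 4, where 4 were in that fit. Between the siRNAs, 1 was lower, where 3 were in that fit, without siGOLM1-1 replicate 1, siGOLM1-1 replicate 4 or siGOLM1-2 replicate 4. Leaving out 1 library gave 4 to 7 members higher and 1 lower with siGOLM1-1, 6 to 7 higher with siGOLM1-2, and 2 to 3 higher and 1 to 3 lower between the siRNAs. The 7 came without siGOLM1-2 replicate 4, when FOSB, FOSL1 and JUN were called as well. Directions changed in 3 results, none of them called: JUNB with siGOLM1-2 was at -0.23 against control replicates 3 and 4 alone, -0.08 without control replicate 1, -0.05 without control replicate 2 and -0.01 without siGOLM1-2 replicate 4 (from -0.08 to 0.15 with any 1 library left out); EGR1 with siGOLM1-2 was at 0.28 against control replicates 3 and 4 alone and 0.17 without control replicate 2 (from -0.33 to 0.17 with any 1 library left out); FOSL2 between the siRNAs was at -0.05 with library totals as the scaling. The cause was not tested. That scaling moved the share of calls that were higher from 48.4% to 59.1% with siGOLM1-2 and from 51.2% to 37.4% between the siRNAs, and the median of all genes between the siRNAs from 0.01 to -0.12. Genes called numbered 7472 to 8700 with siGOLM1-1, 6904 to 8328 with siGOLM1-2 and 8630 to 9614 between the siRNAs when 1 library was left out. Counts of calls in the lists moved by more than 1.5 times in 30 of 216 cases.

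Replicate numbers are shared by the groups, but same-numbered libraries did not pair: their deviations correlated from -0.34 to 0.48, over 0.1 in 6 of 12 pairs, and 4 of 12 libraries were closest to their own number. With the replicate number as a block, 8389 genes were called with siGOLM1-1, 7929 with siGOLM1-2 and 9614 between the siRNAs; 4 and 7 members were higher against control, and FOSL1 between the siRNAs was not called (-0.75, edgeR adjusted p = 0.129). FOSB, at 43 to 132 counts, and EGR1, at 56 to 130, are the members most limited by counting error.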
